A study of Oryctolagus cuniculus with 24 samples.

Results

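The 4 genes described here are IL12A, IL23A, IFNG and IFNGR1, which link myeloid cytokines to interferon gamma in rabbit peripheral blood mononuclear cells (PBMCs). They were taken from the array by symbol, and they account for 4 of 28883 genes, read by 11 of 42089 probes on 13 spots. Blood of 4 adult females of the New Zealand White breed (rabbits 1, 2, 4 and 5) gave the PBMCs, which were cultured for 4 h (T4) or 24 h (T24) and were either mock-stimulated with buffer, stimulated with 1 µg/mL LPS, the bacterial lipopolysaccharide that myeloid cells sense through Toll-like receptors, or stimulated with 10 ng/mL PMA plus 1 µg/mL ionomycin (PMA-Ionomycin), a phorbol ester and a calcium ionophore that together bypass surface receptors. Each of the 6 groups therefore holds 4 arrays, 1 per rabbit, and all groups share the same 4 animals and otherwise the same culture. A level is the log2 median spot signal minus the median of all non-control spots on that array, so 0 is the brightness of a typical spot, and levels of different probes are not comparable.

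Interleukin 12 is a heterodimer of the p35 subunit, encoded by IL12A, and the p40 subunit, encoded by IL12B. Interleukin 23 pairs that same p40 with p19, encoded by IL23A. Monocytes and dendritic cells release both on contact with microbial products, interleukin 12 drives natural killer cells and T cells to secrete interferon gamma (IFNG) through STAT4, and interleukin 23 sustains type 17 T cells. Interferon gamma then acts on nearly every cell through a receptor of IFNGR1, which binds the cytokine, and IFNGR2, which is needed for signalling through the kinases JAK1 and JAK2.

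The probe sequences are given first because the 2 probes named IFNG did not follow each other. IL12A was read by 5 probes that are shifted by 1 base each over 64 bases, so they are close to repeated readings of a single site, at chr14:54464043-54464106 of build oryCun2, plus strand. They are joined below, with the 56 bases that all 5 share in capitals. IL23A had a single probe, at chr4:39915840-39915899, plus strand. IFNGR1 had 3 probes on the minus strand between 127592988 and 127597064 of chromosome 12, of which the one with the lowest coordinates, chr12:127592988-127593047, is shown. The first IFNG probe, carried over from an earlier version of the array and named IFNG in the files, lies at chr12:101894325-101894384, minus strand. The added IFNG probe belongs to a set of immune genes that the array's designers put in later; it was spotted 3 times and has no position in the files. Capitals in the added probe mark the 21 bases that are the reverse complement of the forward IFNG primer of the study's own PCR assay, which is shown on the last line.
IL12A, 5 probes joined: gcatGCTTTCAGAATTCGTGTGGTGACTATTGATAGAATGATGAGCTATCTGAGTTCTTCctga
IL23A: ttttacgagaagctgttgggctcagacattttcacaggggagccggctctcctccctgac
IFNGR1, 1 of 3 probes: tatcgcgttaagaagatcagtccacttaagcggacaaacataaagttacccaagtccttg
IFNG, first probe: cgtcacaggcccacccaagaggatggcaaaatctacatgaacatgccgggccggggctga
IFNG, added probe: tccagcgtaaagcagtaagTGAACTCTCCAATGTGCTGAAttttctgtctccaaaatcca
IFNG, PCR primer, forward: ttcagcacattggagagttca

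Of all 42089 probes on the array, 1 held the reverse complement of that primer, and it was the added IFNG probe, at its bases 20 to 40. Neither IFNG primer, on either strand, was found in the first IFNG probe. The longest run of bases that both IFNG probes share was 7, so they read different stretches of sequence. Their GC content was 60% for the first probe and 41.7% for the added one.

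The position of the first IFNG probe was set against the genes that flank IFNG in the RefSeq order of the rabbit genome (assembly mOryCun1.1, used for gene order only). Of the 10 nearest named genes with a placed probe on each side of IFNG, among them IL26, all 20 had their probes on chromosome 4 of oryCun2 and 0 had them on chromosome 12, where the first IFNG probe lies. In oryCun2 that probe lies between probes of MARCKS and HS3ST5, and RefSeq places neither on the chromosome of IFNG. For the other members the probe and the neighbourhood matched, with 20 of 20 neighbours on the probe's chromosome for IL12A, 19 of 20 for IL23A and 20 of 20 for IFNGR1. Which transcript the first probe reads was not tested, and both IFNG probes are therefore reported apart.

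Between 51.4% and 62.3% of non-control spots were well above background on the 24 arrays, as called by the scanner software, and their number limits the precision. The arrays lay on 3 slides, each with all 6 groups. Differences were tested with limma over all 24 arrays, with Benjamini-Hochberg adjusted p-values over 28884 genes and probes, and were called below 0.05. Each culture was measured once, so the spread within a group holds animal, culture and array together.

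IL23A, the interleukin 23 p19 subunit, was higher with LPS and lower with PMA-Ionomycin at both times. In rabbits 1, 2, 4 and 5 respectively, the mock level at T4 was 3.70, 4.00, 2.57 and 5.55. With LPS at T4 it was 6.04, 7.22, 6.05 and 5.60. With PMA-Ionomycin at T4 it was 1.32, 0.81, 0.97 and 0.43. The 3 groups did not overlap at T4, although the LPS array of rabbit 5 was only just above the mock array of the same animal, which was the highest mock array. At T24 the mock level was 3.95, 3.26, 2.51 and 2.89. With LPS it was 8.49, 6.25, 6.11 and 6.55. With PMA-Ionomycin it was 0.52, 0.24, -0.43 and 0.22. Again the 3 groups were fully apart, and every IL23A value was well above background.

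Against mock, the log2 FC of IL23A with LPS was 2.27 ± 0.51 (SE) at T4, 4.84-fold, with a limma adjusted p of 0.0398. At T24 it was 3.70 ± 0.51, 13.0-fold, with an adjusted p of 0.000211, and 4 of 4 rabbits were higher, by 3.0 to 4.53. The difference between these effects at T24 and T4 was 1.42 ± 0.73 (adjusted p = 0.334), so an increase of the LPS effect with time was not called. With PMA-Ionomycin, IL23A fell by 3.07 ± 0.51 at T4 (8.40-fold lower, adjusted p = 7.46e-05) and by 3.01 ± 0.51 at T24 (8.08-fold lower, adjusted p = 4.7e-05), lower in 4 of 4 rabbits at both times. With the background-subtracted processed signal the T24 fall was 16.9-fold. The direct comparison of the stimulations gave a level 40.6-fold lower with PMA-Ionomycin than with LPS at T4 (log2 FC -5.34 ± 0.51, adjusted p = 3.78e-08) and 105-fold lower at T24 (log2 FC -6.71 ± 0.51, adjusted p = 3.12e-10). Within the mock, LPS or PMA-Ionomycin cultures, IL23A was not called different between T24 and T4, with adjusted p-values of 0.399, 0.322 and 0.281.

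IL12A, the p35 subunit that is particular to interleukin 12 and interleukin 35, followed another course. In cultured cells without a stimulus it was well above background at T4 and no longer at T24. The mock level at T4 was 1.46, 0.48, 0.75 and 1.60 in rabbits 1, 2, 4 and 5, well above background on all 4 arrays. At T24 it was -0.94, -0.99, -0.64 and -0.85, and 0 of 4 arrays were well above background. The groups did not overlap, and the fall over time was called (log2 FC -1.93 ± 0.29, limma adjusted p = 4.91e-05). Since the later group gives only a bound, the mock level was at least 3.70-fold lower at T24. Such a bound sets the brighter group's mean against the mean, over the dim arrays, of the lowest level that any probe well above background had on that array, or of the member's own level where this was higher.

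With LPS at T4 the IL12A level was 2.15, 1.88, 2.94 and 2.08, above all 4 mock arrays of that time. At T24 with LPS it was -0.45, -0.81, -0.77 and -0.33, with 2 of 4 arrays well above background, and the range overlapped that of the mock arrays. The rise with LPS at T4 was 2.28-fold (log2 FC 1.19 ± 0.29, limma adjusted p = 0.0479), while at T24 the log2 FC was 0.26 with a 95% confidence interval of -0.34 to 0.87 (adjusted p = 0.889). From T4 to T24, IL12A in LPS cultures fell by 2.85 ± 0.29 (7.23-fold lower, adjusted p = 1.57e-07). The difference between the LPS effects at the 2 times was -0.92 ± 0.41 and was not called (adjusted p = 0.26).

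PMA-Ionomycin gave the reverse order in time for IL12A. At T4 its level was 1.30, 0.61, 2.04 and 1.04, which overlapped the mock arrays. At T24 it was 1.99, 0.93, 1.30 and 1.00, above all mock and LPS arrays of that time. At T4 the log2 FC against mock was 0.17 with a 95% confidence interval of -0.43 to 0.77 (limma adjusted p = 0.821), and at T24 it was 2.16 ± 0.29, at least 4.34-fold higher (adjusted p = 2e-06), higher in 4 of 4 rabbits by 1.85 to 2.93. The background-subtracted processed signal gave a log2 FC of 4.07 at T24, which is no measured fold either, since 0 of 4 mock arrays were well above background. The difference between these effects was 1.99 ± 0.41 (adjusted p = 0.000791). The IL12A level itself did not differ detectably between T24 and T4 in PMA-Ionomycin cultures (log2 FC 0.06, 95% confidence interval -0.55 to 0.66), and the mock level was the one that fell. Against LPS, IL12A was 2.02-fold lower with PMA-Ionomycin at T4 (adjusted p = 0.0102) and 3.72-fold higher at T24 (adjusted p = 1.04e-05). The 5 probes fitted singly gave log2 FC values of 2.09 to 2.19 for PMA-Ionomycin at T24, where all 5 were called, and of 1.11 to 1.34 for LPS at T4, where 1 of 5 was called.

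**Figure D1:**
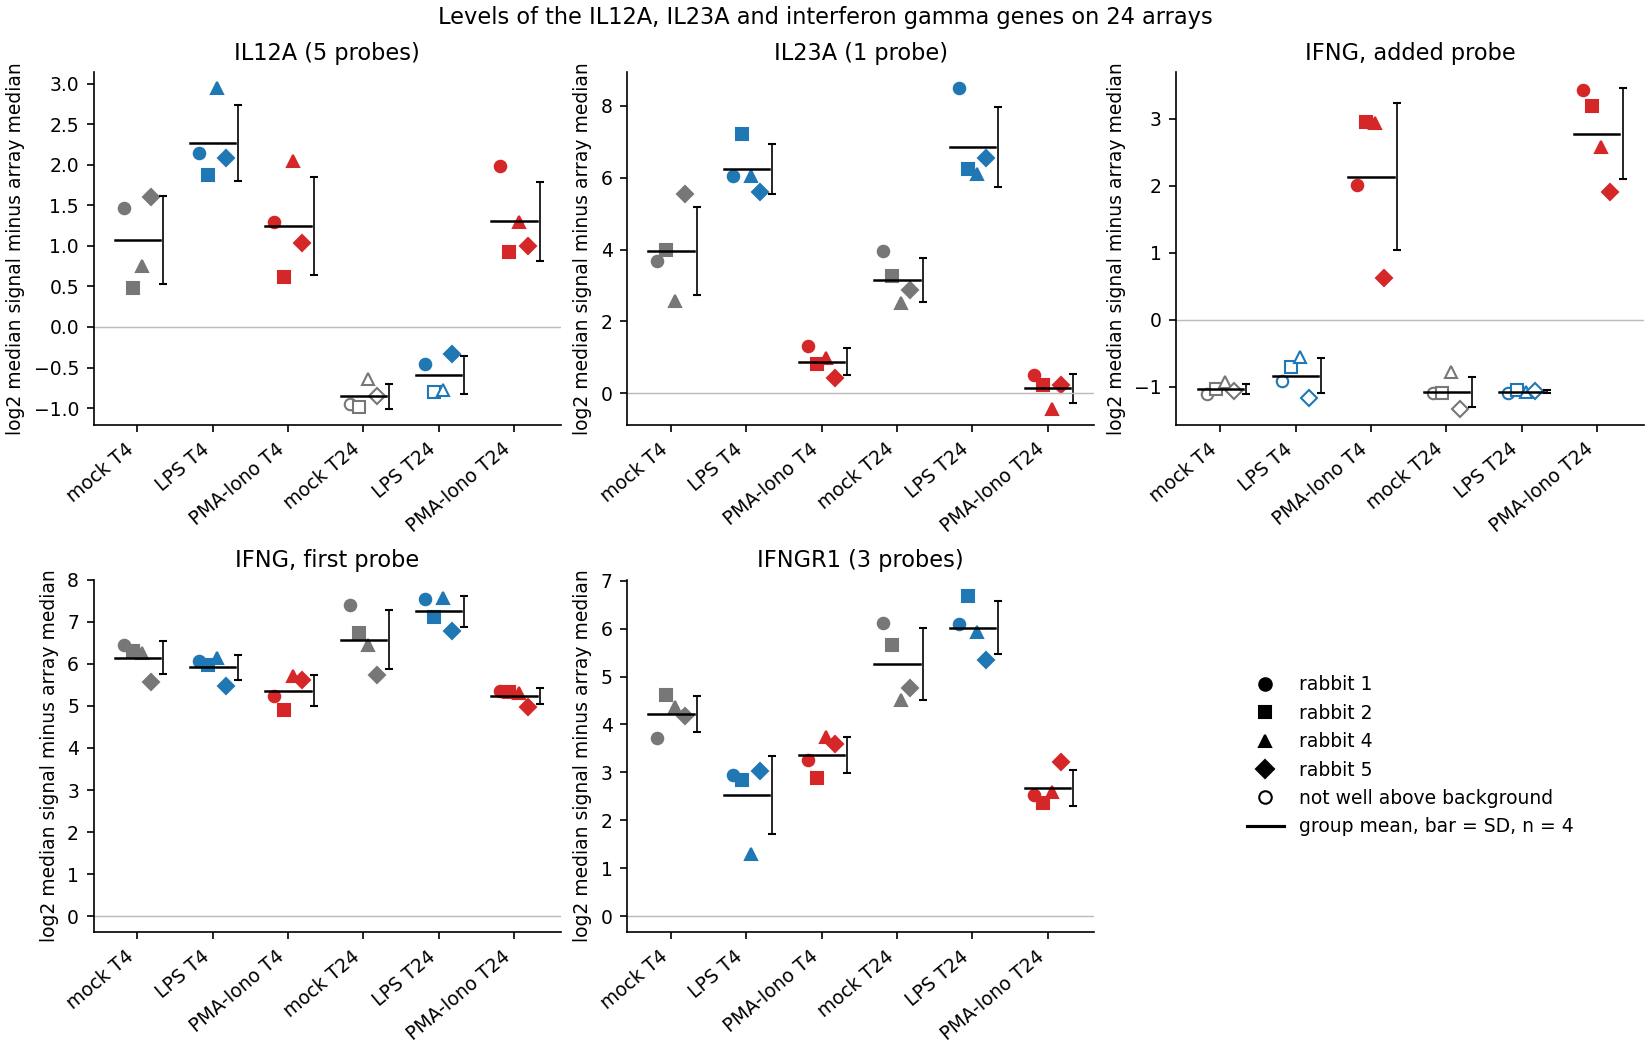
Level of each member (log2 median signal minus the array median, vertical axis) in the 6 groups of 4 arrays, with 1 marker per rabbit, the group mean as a line and its SD as a bar. IL23A lies highest with LPS and lowest with PMA-Ionomycin at both times, IL12A is lowest in mock and LPS cultures at T24, and the added IFNG probe is above background with PMA-Ionomycin alone.

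IFNG encodes interferon gamma itself. The added probe, which carries the primer site shown above, was well above background on all 8 PMA-Ionomycin arrays and on none of the 16 mock and LPS arrays. With PMA-Ionomycin at T4 its level was 2.01, 2.96, 2.94 and 0.62 in rabbits 1, 2, 4 and 5. At T24 it was 3.43, 3.18, 2.58 and 1.90. Rabbit 5 had the lowest value at both times. In the other groups it lay between -1.33 and -0.56, with no overlap with any PMA-Ionomycin array.

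Against mock, the added IFNG probe was at least 7.97-fold higher with PMA-Ionomycin at T4 (log2 FC 3.16 ± 0.35, limma adjusted p = 3.53e-07) and at least 13.0-fold higher at T24 (log2 FC 3.85 ± 0.35, adjusted p = 5.84e-09). The difference between T24 and T4 was 0.64 ± 0.35 within PMA-Ionomycin cultures and was not called (adjusted p = 0.174). With LPS the log2 FC of this probe was 0.19 at T4 (95% confidence interval -0.54 to 0.93, adjusted p = 0.832) and 0.01 at T24 (-0.72 to 0.74, adjusted p = 0.999). Both groups of these LPS comparisons were below the measurable range, so no fold is given. With the background-subtracted processed signal the log2 FC of the added probe was 6.12 at T4 and 6.51 at T24, but no mock array was well above background, so only the bounds above are given as folds. The 3 spots of this probe spanned a median of 0.20 on the log2 scale within an array.

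The first probe named IFNG, whose position did not match that of the genes around IFNG, moved the opposite way with PMA-Ionomycin. Its transcript was not tested, so its values are not read here as levels of IFNG. This first probe was well above background on all 24 arrays. Its mock level was 6.46, 6.30, 6.27 and 5.57 at T4 and 7.40, 6.74, 6.45 and 5.73 at T24. With LPS it was 6.07, 5.98, 6.13 and 5.48 at T4 and 7.55, 7.11, 7.56 and 6.78 at T24. With PMA-Ionomycin it was 5.23, 4.90, 5.71 and 5.61 at T4 and 5.37, 5.33, 5.31 and 4.97 at T24. The PMA-Ionomycin arrays overlapped the mock arrays at T4 and lay below all of them at T24.

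Its log2 FC with PMA-Ionomycin was -0.79 ± 0.27 at T4 (limma adjusted p = 0.0393) and -1.34 ± 0.27 at T24 (2.52-fold lower, adjusted p = 0.000375). The T4 call was lost with the slide as a block (log2 FC -0.71, adjusted p = 0.0711) and without rabbit 1, 2 or 4 (log2 FC -0.64, -0.58 and -0.86). With LPS the first probe was not called at T4 (log2 FC -0.24, adjusted p = 0.733) or at T24 (0.67, adjusted p = 0.33), although it rose 2.52-fold from T4 to T24 in LPS cultures (log2 FC 1.33 ± 0.27, adjusted p = 0.000682). Over the 24 arrays the levels of both IFNG probes had a Pearson r of -0.691, a description over arrays that share 4 rabbits and 6 groups. An average of both probes was 1.19 higher than mock with PMA-Ionomycin at T4 and 1.26 higher at T24, which matches the direction of the added probe alone.

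**Figure D2:**
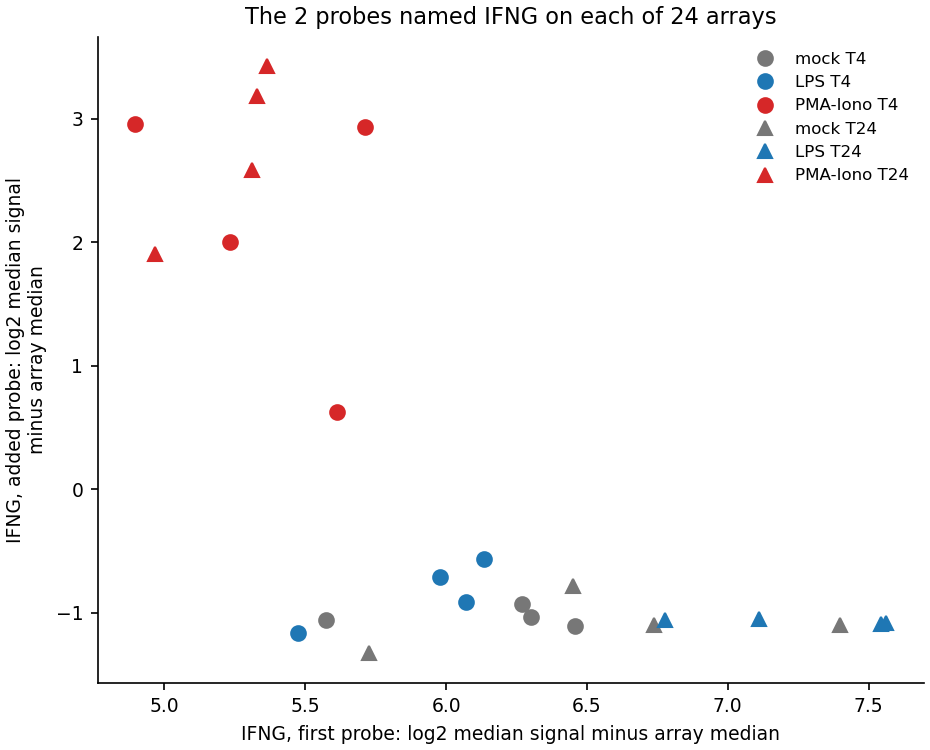
Level of the added IFNG probe (vertical axis) against the first IFNG probe (horizontal axis) on 24 arrays, both as log2 median signal minus the array median, coloured by stimulation and shaped by time. The 8 PMA-Ionomycin arrays are high on the added probe, where all lie above 0, and low on the first probe, and mock and LPS arrays spread along the first probe while the added probe stays near -1.

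IFNGR1, the ligand-binding chain of the interferon gamma receptor, was well above background on all 24 arrays. Its mock level was 3.73, 4.62, 4.37 and 4.17 at T4 in rabbits 1, 2, 4 and 5. With LPS at T4 it was 2.94, 2.83, 1.31 and 3.04, and with PMA-Ionomycin 3.25, 2.89, 3.74 and 3.59. The LPS arrays lay below all mock arrays, rabbit 4 by far the most, and the PMA-Ionomycin arrays overlapped the mock range at its lower end. At T24 the mock level was 6.12, 5.67, 4.51 and 4.75. With LPS it was 6.10, 6.69, 5.93 and 5.34, and with PMA-Ionomycin 2.53, 2.35, 2.60 and 3.22. Here the LPS arrays overlapped the mock arrays, and the PMA-Ionomycin arrays were below both.

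The log2 FC of IFNGR1 with LPS was -1.69 ± 0.37 at T4 (3.24-fold lower, limma adjusted p = 0.0384) and 0.75 at T24 (95% confidence interval -0.01 to 1.52, adjusted p = 0.475). The difference between these effects was 2.45 ± 0.52 and was called (adjusted p = 0.0205). With PMA-Ionomycin the log2 FC was -0.86 ± 0.37 at T4 (adjusted p = 0.112) and -2.59 ± 0.37 at T24 (6.01-fold lower, adjusted p = 4.94e-06), lower in 4 of 4 rabbits at T24 by 1.54 to 3.60. This difference between times, -1.73 ± 0.52, was also called (adjusted p = 0.0179). From T4 to T24, IFNGR1 rose 11.2-fold in LPS cultures (log2 FC 3.49 ± 0.37, adjusted p = 2.86e-07), while the log2 FC was 1.04 in mock cultures (adjusted p = 0.0736) and -0.69 in PMA-Ionomycin cultures (adjusted p = 0.162). At T24 the level was 10.1-fold lower with PMA-Ionomycin than with LPS (adjusted p = 9.95e-08). The interaction with LPS was not called without rabbit 2 (2.33, adjusted p = 0.208) or rabbit 4 (1.77, adjusted p = 0.176), with the processed signal (2.36, adjusted p = 0.0501) or with only the arrays of the comparison (2.45, adjusted p = 0.0553), and that with PMA-Ionomycin was not called without rabbit 1 (-1.27, adjusted p = 0.207) or rabbit 2 (-1.79, adjusted p = 0.058).

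**Figure D3:**
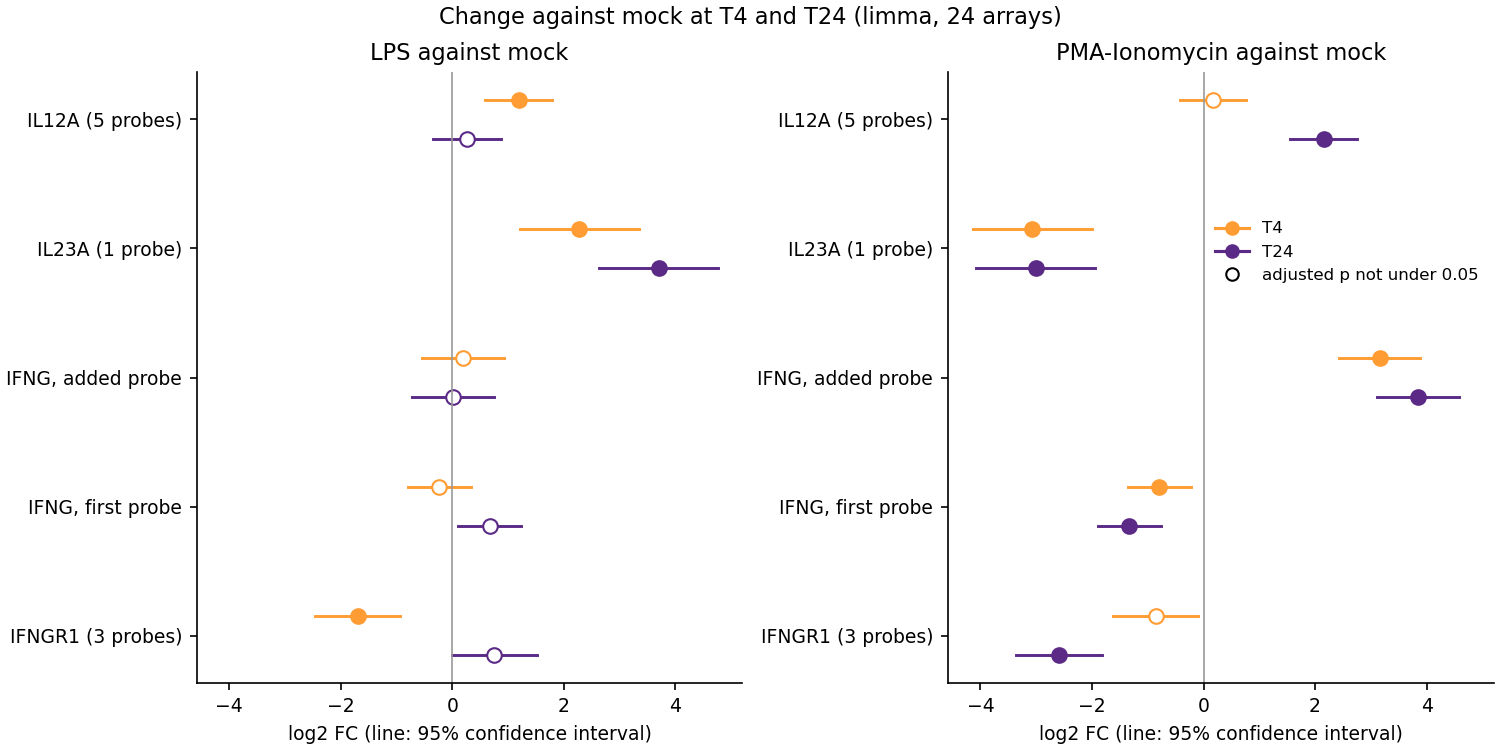
log2 FC of each member against mock at T4 and T24 with LPS (left panel) and PMA-Ionomycin (right panel), with 95% confidence intervals as lines and filled points where the limma adjusted p was under 0.05. IL23A moves to opposite sides with LPS and PMA-Ionomycin, the added IFNG probe is far to the right with PMA-Ionomycin at both times, and IFNGR1 is lower with LPS at T4 and with PMA-Ionomycin at T24.

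The 5 readings named after the 4 genes were counted, with both IFNG probes apart. With LPS at T4 3 were called, 2 higher and 1 lower, where 1.02% of all genes and probes tested were called. At T24 with LPS 1 was called, against 1.23%. With PMA-Ionomycin 3 were called at T4, against 22.8%, and all 5 at T24, against 33.6%. Between the stimulations 3 were called at T4 against 26.7%, and 5 at T24 against 36.1%. From T4 to T24, 1 was called in mock cultures against 12.5%, 3 in LPS cultures against 37.6% and 0 in PMA-Ionomycin cultures against 33.7%, where 0 of the 5 readings had an unadjusted p under 0.05 in limma over all arrays. With only the 8 arrays of that last comparison, IL23A (log2 FC -0.75, limma adjusted p = 0.022) and IFNGR1 (-0.69, adjusted p = 0.0291) were called lower at T24. Among the interactions with time, 1 was called for LPS against 1.94% and 2 for PMA-Ionomycin against 22.5%. These comparisons share arrays, so their counts are not independent. The first IFNG probe, whose transcript was not tested, is among the calls with PMA-Ionomycin against mock at both times. It is also among the calls between the stimulations at T24 and from T4 to T24 in LPS cultures.

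The 3 calls with LPS at T4 were each lost in fits with 1 rabbit left out. Over all genes and probes, 119, 0, 0 and 96 were called without rabbit 1, 2, 4 and 5, against 296 with all. IL12A lost its call without any one of the 4 rabbits, at log2 FC values of 0.85 to 1.42, against 1.19 with all. IL23A lost it without rabbit 1, 2 or 4, at 2.25, 1.96 and 1.87, and kept it without rabbit 5, at 3.01. IFNGR1 lost it without any one rabbit, at -2.0 to -1.24, the latter without rabbit 4, against -1.69 with all. No direction changed. With the rabbit as a block all 3 calls were kept, and 1227 instead of 296 genes and probes were called over the array.

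Slide by slide, the called members kept their direction. The difference from mock for IL23A was 1.67, 2.92 and 1.82 on slides 1, 2 and 3 with LPS at T4 and -4.65, -2.71 and -2.68 with PMA-Ionomycin at T4. For the added IFNG probe with PMA-Ionomycin at T24 it was 4.48, 4.28 and 3.34, and for IFNGR1 it was -2.10, -3.77 and -2.76. IL12A with LPS at T4 was the least even, at 0.27, 1.83 and 1.64. A slide held 1 or 2 arrays of a group.

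The arrays measured RNA of mixed cells, so fewer cells of a type and less RNA per cell cannot be told apart. Of 10 monocyte markers 6 were measured by name, and the mean of their levels was 1.94 to 3.1 in mock, 1.46 to 1.97 in LPS and 1.09 to 1.60 in PMA-Ionomycin cultures at T4. At T24 it was 3.91 to 5.21, 3.35 to 4.41 and 1.73 to 2.27. With PMA-Ionomycin at T4 3 of these 6 markers fell, where 22.8% of all genes and probes were called. IL23A fell there, the added IFNG probe was higher and IFNGR1 was not called. At T24 5 of 6 fell, where 33.6% were called, beside falls of IL23A and IFNGR1 and higher IL12A and added IFNG probe. With LPS at T4 2 of 6 fell, where 1.02% were called, beside the fall of IFNGR1 and the rises of IL12A and IL23A. From T4 to T24, 5 of 6 rose in mock cultures, where 12.5% were called, beside the fall of IL12A. In LPS cultures 5 of 6 rose, where 37.6% were called, beside the rise of IFNGR1 and the fall of IL12A. Of the monocyte markers measured, MPEG1 was not above background on every mock array. Of 5 dendritic cell markers 3 were named, XCR1, CD1C and CCR7, of which XCR1 was not above background on every mock array. Their mean was 1.01 to 1.63 in mock and 3.05 to 3.77 in PMA-Ionomycin cultures at T4, when 2 of 3 rose beside the fall of IL23A. At T24, when IL23A also fell, 1 of these 3 rose and 1 fell, with a median log2 FC of 0.05. Of 6 neutrophil markers 4 were named, and with PMA-Ionomycin at T24 3 of them fell, with a mean of -0.13 to 0.07 against 1.34 to 1.97 in mock cultures. The part of monocyte, dendritic cell or neutrophil number in these results was not tested.

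T cells and natural killer cells are the main sources of interferon gamma. Of 10 T cell markers 7 were measured by name, CD3D, CD3E and CD3G not among them, and their mean was 0.54 to 0.94 in mock and 0.57 to 0.97 in PMA-Ionomycin cultures at T4, and 0.28 to 0.76 and 0.36 to 0.56 at T24. The groups overlapped at both times. With PMA-Ionomycin 1 of the 7 rose at T4, and 1 rose and 2 fell at T24. Over all genes and probes 22.8% were called at T4 and 33.6% at T24. Of these markers CD247, CD28 and CD4 were not above background on every mock array. Of 9 natural killer cell markers 3 were measured by name, NCR3, PRF1 and KLRK1, of which KLRK1 was not above background on every mock array. Their mean was 0.17 to 0.63 in mock and -0.03 to 0.43 in PMA-Ionomycin cultures at T4, but -0.21 to 0.54 and 0.68 to 1.28 at T24. With PMA-Ionomycin 1 of 3 fell at T4 and all 3 rose at T24, against the same shares of 22.8% and 33.6%. The part of T cell and natural killer cell number in the IFNG level was not tested.

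The genes around the members were taken by list. Of the 42089 probes 21133 kept only an identifier, so a listed gene that is not counted here was not named and may still have a probe. Of the IL12 family ligands 4 of 5 were named, with a median log2 FC of 1.08 for LPS at T4 against 0.06 over all genes, which includes the members IL12A and IL23A, the only 2 called. The median of the list was 0.17 with LPS at T24 and 0.16 with PMA-Ionomycin at both times. IL12B, the p40 subunit that both interleukins need, had a level of 0.24 with LPS at T4 (3 of 4 arrays well above background) and of -0.73 in mock cultures (0 of 4), at least 1.93-fold higher but not called (log2 FC 0.98, limma adjusted p = 0.141). With PMA-Ionomycin its log2 FC was 0.72 at T4 (adjusted p = 0.128), and at T24 neither group was above background. IL27, the p28 subunit of interleukin 27, rose with PMA-Ionomycin at T24 by a log2 FC of 0.51 (adjusted p = 0.0287), in 3 of 4 rabbits, a call that was lost in 8 of 14 alternatives.

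Receptor chains differed from mock with LPS at T24, when IL23A was at its highest mean. Of the 4 listed receptors of interleukins 12, 23 and 27, 2 were named on the array. Both were higher than mock, where 1.23% of all genes and probes were called. IL12RB2, the signalling chain of the interleukin 12 receptor, was 2.20-fold higher (log2 FC 1.14 ± 0.22, limma adjusted p = 0.00626). Its level did not differ detectably between T24 and T4 in LPS cultures (log2 FC 0.14, adjusted p = 0.609). The mock level was the one that fell (log2 FC -0.86, adjusted p = 0.00975). IL23R, which binds p19, was above background on 4 of 4 LPS arrays and on 0 of 4 mock arrays, at least 1.72-fold higher (log2 FC 0.80 ± 0.16, adjusted p = 0.00928). Both calls were lost without rabbit 1, 2 or 4 and with the arrays of that comparison alone, in the same direction. With PMA-Ionomycin at T4 IL12RB2 fell 1.68-fold (adjusted p = 0.0144), a call lost without rabbit 1, 2 or 4.

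IFNGR2, the signalling chain of the interferon gamma receptor, was lower than mock wherever IFNGR1 was called lower, and also with PMA-Ionomycin at T4. With LPS at T4 it was 2.14-fold lower (log2 FC -1.10 ± 0.25, limma adjusted p = 0.0398), a call that was lost in 8 of 14 alternatives. With PMA-Ionomycin it was 2.64-fold lower at T4 (adjusted p = 0.00014) and 13.0-fold lower at T24, with a mean level of 0.23 ± 0.08 (SD) against 3.93 ± 0.52 in mock cultures (log2 FC -3.70 ± 0.25, adjusted p = 4.27e-11). With LPS at T24 its log2 FC was -0.10 (adjusted p = 0.983). Both receptor chains thus had calls of the same direction with LPS at T4 and with PMA-Ionomycin at T24.

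STAT4, which carries the interleukin 12 signal to the IFNG gene, rose 10.7-fold with PMA-Ionomycin at T24 (log2 FC 3.42 ± 0.26, limma adjusted p = 2.64e-10) and had a log2 FC of 0.39 at T4. Of 7 JAK-STAT genes, all measured, 2 rose and 1 fell at T24, where 33.6% of all genes and probes were called, and their median log2 FC was 0.28 against 0.03 over all genes. The other that rose was SOCS1, a feedback inhibitor of JAK kinases, 2.09-fold (adjusted p = 0.00302). The SOCS1 call was lost with both quantile normalizations and without rabbit 5. At T4, SOCS3, another feedback inhibitor, rose 4.41-fold (adjusted p = 0.000338), and JAK1, the kinase bound to IFNGR1, fell 1.72-fold (adjusted p = 0.000725). The fall of JAK1 at T24 was 1.78-fold (adjusted p = 0.000223). With LPS 0 of 7 were called by limma at either time, and 0 at T4 and 2 at T24 had an unadjusted p under 0.05.

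Of 6 transcription factors of type 1 and type 17 T cells 4 were named on the array. No probe was matched here to TBX21, which encodes T-bet, the main type 1 factor, or to EOMES, so neither was analysed. HLX, a partner of T-bet in type 1 cells, rose 2.37-fold with PMA-Ionomycin at T4 (limma adjusted p = 0.00057) and fell 1.82-fold at T24 (adjusted p = 0.00906). RORA, a type 17 factor, fell 2.27-fold at T24 (adjusted p = 0.0101). The HLX fall was lost without rabbit 1 or 2, and that of RORA without rabbit 4. With LPS 0 of 4 were called by limma at either time, and 0 at T4 and 1 at T24 had an unadjusted p under 0.05.

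Interleukin 18 acts together with interleukin 12 on IFNG. Of its 4 listed genes 3 were named on the array. IL18 and its receptor chain IL18R1 fell with PMA-Ionomycin at T4 by log2 FC values of 0.85 and 0.87 (limma adjusted p = 0.0456 and 0.0333). IL18R1 was not above background on any PMA-Ionomycin array at T4 and was at least 1.73-fold lower. Both calls were lost without rabbit 1, 2 or 4, among other alternatives. IL18BP, the soluble decoy that neutralizes interleukin 18, fell 4.71-fold at T24 (log2 FC -2.24 ± 0.43, adjusted p = 0.000187).

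Of 29 listed interferon gamma targets 17 were named on the array. With PMA-Ionomycin at T4 3 rose and 5 fell, where 22.8% of all genes and probes were called, with a median log2 FC of -0.49 against 0.05 over all genes. At T24 6 rose and 1 fell, close to the 33.6% called over all genes and probes, with a median of 0.61 against 0.03, and with the added IFNG probe high at both times. The falls at T4 were led by CXCL10, a chemokine for activated T cells, 5.82-fold (limma adjusted p = 0.000113), PSMB8, an immunoproteasome subunit, 3.03-fold (adjusted p = 0.000143), and PSME2, a proteasome activator subunit, 2.98-fold (adjusted p = 0.000203). The rises at T24 were led by PSMB9, another immunoproteasome subunit, 4.77-fold (adjusted p = 2e-06), the tryptophanyl-tRNA synthetase WARS1, 3.52-fold (adjusted p = 3.55e-05), and TAP1, a peptide transporter subunit, 2.73-fold (adjusted p = 0.00388).

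The difference between the PMA-Ionomycin effects at T24 and T4 was called for 11 of the 17 targets, 9 towards higher and 2 towards lower values, where 14.4% and 8.17% of all genes and probes were called. Mock levels moved too: from T4 to T24, 0 of 17 were called higher and 5 lower in mock cultures, against 12.5%. In PMA-Ionomycin cultures 7 were called higher and 4 lower, against 33.7%. GCH1 had a higher effect at T24 (2.05, limma adjusted p = 0.0351), but its PMA-Ionomycin level fell 8.02-fold over time. Against mock, the targets called lower at T4 and higher at T24 were 2 genes, PSMB9 and the proteasome activator subunit PSME1, named after their values were seen. The T4 call of PSMB9 was lost without rabbit 1 (-0.76, limma adjusted p = 0.0983) or 4 (-1.11, adjusted p = 0.0678), and that of PSME1 without rabbit 1, 2 or 5. For PSME1 the T24 log2 FC of 0.56 was called in 4 of 14 alternatives and changed sign in 2 of them. With LPS 0 of 17 were called by limma at T4, and 5 had an unadjusted p under 0.05. At T24 1 of 17 was called, GCH1, the first enzyme of tetrahydrobiopterin synthesis. It was 8.01-fold higher than mock (log2 FC 3.0 ± 0.49, adjusted p = 0.00131) and lost its call without rabbit 4. The GCH1 level itself fell from T4 to T24 in LPS cultures (log2 FC -2.86, limma adjusted p = 0.000113). It fell further in mock cultures (log2 FC -5.06, adjusted p = 1.65e-07). In the LPS comparisons with mock the added IFNG probe was below background.

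**Figure D4:**
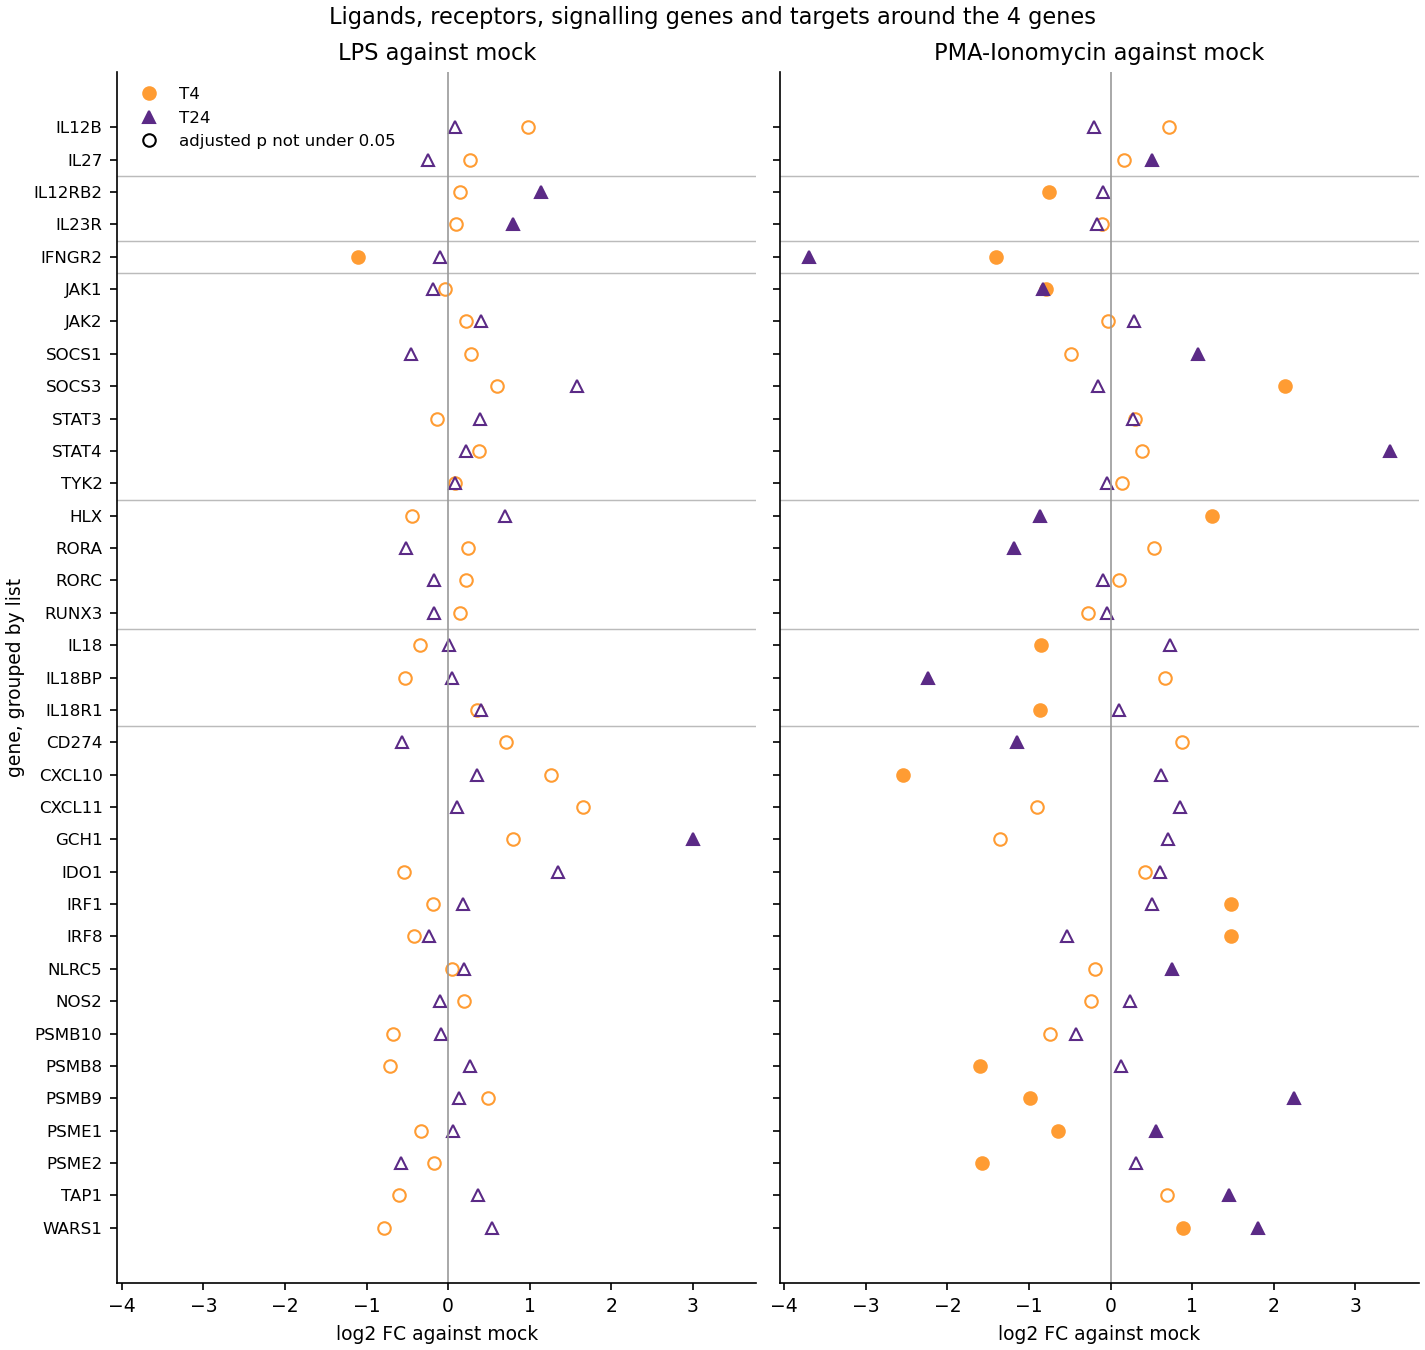
log2 FC against mock for 35 measured genes of the lists other than the members, with LPS (left panel) and PMA-Ionomycin (right panel), circles for T4 and triangles for T24, filled where the limma adjusted p was under 0.05, and lines between the lists. STAT4 is furthest right and IFNGR2 furthest left at T24 with PMA-Ionomycin, and GCH1, IL12RB2 and IL23R are the filled points with LPS at T24.

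The genes most like each member were sought among 6267 named genes well above background in at least 1 group, by Pearson r of their levels over the 24 arrays, which share rabbits, groups and slides. For IL23A they were MEFV (0.926), CSF3 (0.911), IL37 (0.888), IL36G (0.866) and IRAK3 (0.863). For the added IFNG probe they were CCL20 (0.972), LAP3 (0.958), WDR12 (0.948), GMPS (0.942) and PAPOLA (0.941). For the first IFNG probe they were TMEM164 (0.946), GAS7 (0.940), MMP14 (0.927), SCARF1 (0.921) and ZSCAN20 (0.906), none of them shared with the added probe. For IFNGR1 they were SCAMP2 (0.953), RIPK1 (0.946), RAB5C (0.943), TGOLN2 (0.941) and GSTP1 (0.939). For IL12A the values were lower, with SGO2 (0.887), SCHIP1 (0.843), TRIM69 (0.840), SLC39A8 (0.834) and SUB1 (0.823), of which SCHIP1 is the named gene next to IL12A on one side in the RefSeq order.

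CCL20, a chemokine that attracts cells bearing CCR6, had a mean 2.17 above mock with PMA-Ionomycin at T4 and 2.48 at T24, next to 0.28 and -0.07 with LPS. MEFV, the pyrin gene of myeloid cells, had a mean 1.63 above mock with LPS at T24, and differences of -1.85 and -2.29 with PMA-Ionomycin at T4 and T24.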

How the data were processed

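Cy3-labelled cRNA of each culture was hybridized to a custom one-colour Agilent array. The authors deposited the scanner output of Feature Extraction 10.7.3.1, in which median, mean and processed signals are spot intensities, the processed one with the background subtracted and none scaled between arrays. A log2 table that the authors deposited was found to be this median signal on the log2 scale, centred per array on its mean with control spots included. Here the log2 median signal was centred on the array median over non-control spots, spots flagged as outliers were left out, spots were averaged per probe and probes per gene, and both IFNG probes were kept apart. Probes were named from the files, from RefSeq by accession or gene number, or from the study's list of added genes. Group means were fitted with limma 3.58.1 in R 4.3.3 and called at an adjusted p under 0.05. The script was tested on simulated data. Members, lists and the rules for naming genes (all called genes of lists of up to 6 measured genes, otherwise the 3 largest changes) were chosen with earlier results of these data known. One listed gene is not reported here.

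Samples with the same number came from the same rabbit, so the numbers pair them. Deviations from the group means, over all genes, had a median r of 0.228 for 60 pairs of same-rabbit arrays (-0.413 to 0.629) and of -0.0751 for pairs from different rabbits. The alternatives were other scalings and background corrections, the deposited table, filters on dim and outlying spots, single probes, fewer arrays, and rabbit or slide as a block.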

Additional observations from a re-analysis of the deposited data

Results flagged for a closer look

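The change of IL12A with PMA-Ionomycin differed between T24 and T4 by 1.99 on the log2 scale (interaction in limma, adjusted p = 0.000791), and this call was kept without each rabbit in turn (1.62 to 2.43). The corresponding differences for IFNGR1 were 2.45 with LPS (adjusted p = 0.0205) and -1.73 with PMA-Ionomycin (adjusted p = 0.0179).

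In 2 of the 30 sets of 4 arrays examined, 5 readings in 6 groups, 1 array stood apart from the other 3, and chance alone gives about 1 in 20. For IFNGR1 with LPS at T4 the gap between rabbit 4, at 1.31, and the next array was 0.882 of the range. Without rabbit 4 its log2 FC against mock was -1.24 and was not called (adjusted p = 0.484). For the first IFNG probe with PMA-Ionomycin at T24 the gap between rabbit 5, at 4.97, and the next array was 0.866 of a range that spanned only 4.97 to 5.37.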

How the results depend on the processing

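Of 20 comparisons of a member reading with mock, 11 kept their direction and their side of the threshold under every alternative run. Among them were IL23A with LPS at T24 and with PMA-Ionomycin at both times, and IL12A and IFNGR1 with PMA-Ionomycin at T24. The added IFNG probe with PMA-Ionomycin at both times was also among them, against mock arrays below background. Its own log2 FC lay between 2.62 and 6.12 (T4) and between 2.86 and 6.51 (T24). Averaged with the first IFNG probe, the values were 1.19 and 1.26. The cause of the changes below was not tested, apart from averaged probes and fewer arrays.

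With LPS at T4 the IL12A call was lost with the processed signal (1.67), the deposited table (1.2), only the arrays of the comparison (1.19) and single probes (1.19). The IL23A call was lost with quantile normalization (2.39), the processed signal (2.58), normexp with quantile normalization (2.38), the deposited table (2.28) and only those arrays (2.27), and the IFNGR1 call likewise (-1.57, -1.60, -1.51, -1.69 and -1.69). Without each rabbit in turn the values were 0.85 to 1.42 for IL12A, 1.87 to 3.01 for IL23A and -2.0 to -1.24 for IFNGR1. IFNGR1 with PMA-Ionomycin at T4 was called with quantile normalization (-1.04), normexp (-1.02) and only those arrays (-0.86). The first IFNG probe with PMA-Ionomycin at T4 lost its call with the slide as a block (-0.71) and ranged from -1.06 to -0.58 without each rabbit.

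Averaging both IFNG probes turned the sign of the first probe with PMA-Ionomycin at T4 (1.19) and T24 (1.26), against LPS (1.21 and 0.92), between times (0.26) and in the interaction (0.07), and for the added probe with LPS at T4 (-0.02), in mock (0.19) and LPS cultures between times (0.55) and in the LPS interaction (0.36). Uncalled values near 0 also turned: the added probe with LPS at T24 (deposited table -0.09, outlying spots kept -0.10, without each rabbit -0.08 to 0.11), its mock change between times (0.08 with quantile normalization, 0.03 processed, 0.04 normexp, 0.05 deposited, 0.04 outlying spots kept, -0.11 to 0.03 without each rabbit), its LPS change between times (0.02 quantile, 0.05 normexp) and LPS interaction (0.01 normexp), IL12A with PMA-Ionomycin at T4 (-0.20 to 0.42 without each rabbit) and between times (-0.10 quantile, -0.22 processed, -0.11 normexp, 0.00 deposited, -0.16 to 0.32 without each rabbit), the IL23A interaction with PMA-Ionomycin (-0.45 processed, -0.01 deposited, -0.74 to 0.52 without each rabbit), and the first IFNG probe between times with PMA-Ionomycin (-0.31 to 0.06 without each rabbit).

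Of 38 measured pathway genes, members included, 4 were called with LPS at T4, 3 of them members, against 1.02% of all genes and probes. The count was 1 with either quantile normalization, 0 with the processed signal, the deposited table or only those arrays, and 0 to 2 without each rabbit. With LPS at T24 4 were called, against 1.23%, 2 with only those arrays and 1 to 5 without each rabbit. With PMA-Ionomycin at T4 16 were called, against 22.8%, and 10 to 15 without each rabbit. With the rabbit as a block 5 were called with LPS at T4 and 6 at T24. The replicate block (rabbit) changed no call of a member and gave, for IL23A with LPS at T24, the same log2 FC of 3.70, while the calls over all genes rose from 296 to 1227 with LPS at T4 and from 354 to 753 at T24. They were 0 and 47 with only the arrays of the comparison. At T4 they were also 12 with the processed signal, 0 without rabbit 2 or 4, and 114, 105 and 71 with quantile normalization, normexp and the deposited table. The processed signal moved the median of all genes to -0.26 with PMA-Ionomycin at T24 and to 0.22 with LPS at T4, from 0.03 and 0.06. Probes below background give bounds only, and 4 rabbits limit the precision of all values.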
